A study of Mus musculus with 10 samples.

Results

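Of 97385 ATAC-seq peaks counted in mouse regulatory T cells (Tregs), 3705 autosomal peaks were highly open and held nearly the same level in all 10 libraries. They were chosen by their measured values, as peaks on chromosomes 1 to 19 with a mean of at least 30 CPM (the standard CPM scale, a peak's count divided by the summed counts of all peaks in its library and scaled to a common total) and a highest library no more than 1.35 times the lowest. They made up 3.8% of all peaks and 44.7% of the 8296 autosomal peaks with a mean of at least 30 CPM, and the other 4591 of these highly open peaks served for comparison. All 10 libraries entered the choice, so levels and ratios of the stable peaks are descriptions without a test. CPM was summed over a peak and not divided by its width.

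The study asked how loss of Vps34, the lipid kinase encoded by Pik3c3, alters Treg chromatin. CD4+Foxp3-YFP+TCRb+ cells had been sorted from the lung and spleen of mice aged 10 days, and every animal carried Foxp3Cre, a recombinase with a YFP reporter expressed from the Treg lineage gene Foxp3. Controls were Pik3c3+/+ or Pik3c3+/fl (spleen, n = 2; lung, n = 2) and Vps34-deficient mice were Pik3c3fl/fl (spleen, n = 4; lung, n = 2). These spleen numbers are those of the labels and the table's columns, whereas the methods of the study give them the other way round for the genotypes. The labels were followed, so the genotype of every spleen library, and any direction between genotypes in spleen, rests on them. The study names Klrg1 and Il1rl1 among loci altered in both tissues. The Klrg1 promoter was at 4.41 and 4.55 CPM in spleen controls and 1.9 to 4.31 in Vps34-deficient spleen. In lung it was at 7.87 and 13.7, and at 3.25 and 3.6. Il1rl1 was at 2.94 and 3.03, 2.08 to 2.73, 3.61 and 9.6, and 1.14 and 1.27 in the same order. An exchange of the spleen labels was not tested. The labels do not say which libraries came from separate mice, so p-values measure only the spread between these samples, which may be technical.

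Library totals ran from 9405823 to 22439699 counts. The least covered stable peak had between 234 and 594 counts in a library. Promoters of 8 T cell marker genes all had a peak and summed to 207.7 to 283.7 CPM per library. Markers of other lineages summed to 14 to 19.7 CPM for B cells (2 of 5 promoters with a peak), 5.29 to 10.7 for myeloid cells (2 of 5), 24.9 to 36.2 for epithelium (3 of 5), 26.6 to 34.4 for endothelium (3 of 4) and 7.76 to 15.8 for CD8 and NK cells (2 of 4). In bulk libraries, a site open in fewer cells and a site less open in each cell cannot be told apart.

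In ATAC-seq, the Tn5 transposase cuts accessible DNA and adds sequencing adaptors, so a peak marks DNA that is free of nucleosomes in some share of the cells. Promoters of widely expressed genes often lie in CpG islands, stretches rich in unmethylated CpG dinucleotides, and are kept open by general factors such as Sp proteins at GC boxes and NF-Y at CCAAT boxes. Enhancers away from promoters are opened by lineage and signal-dependent factors such as Runx and AP-1 proteins, and CTCF sites take part in chromatin loops.

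CCAAT boxes, which were more frequent at stable than at other highly open promoters without matching for level, are shown here at some of the steadiest promoters. Each line below gives the 100 bases before the annotated start on the strand of the gene, for a gene whose stable peak was among the 12 with the smallest highest-to-lowest ratio (GRCm38). They are the first 6 by ratio in which these bases lay within the peak and overlapped no annotated exon. Capitals mark a CCAAT box (CCAAT or ATTGG) or a GC box (CCGCCC or GGGCGG).
Galnt2, chr8:124231291-124231390, plus strand: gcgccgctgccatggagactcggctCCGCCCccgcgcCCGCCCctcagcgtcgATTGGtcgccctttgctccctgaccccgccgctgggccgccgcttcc
Stt3a, chr9:36767680-36767779, minus strand: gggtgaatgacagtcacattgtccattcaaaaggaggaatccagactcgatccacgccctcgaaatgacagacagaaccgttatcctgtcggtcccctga
Qdpr, chr5:45450237-45450336, minus strand: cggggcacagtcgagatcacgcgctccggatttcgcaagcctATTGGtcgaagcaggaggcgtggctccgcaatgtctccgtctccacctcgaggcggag
Atm, chr9:53536741-53536840, minus strand: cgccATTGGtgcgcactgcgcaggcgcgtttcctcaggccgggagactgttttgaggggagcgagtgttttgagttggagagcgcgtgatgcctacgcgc
Papss1, chr3:131564668-131564767, plus strand: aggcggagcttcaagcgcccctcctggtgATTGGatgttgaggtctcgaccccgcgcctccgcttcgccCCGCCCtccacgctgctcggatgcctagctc
Rrbp1, chr2:144011264-144011363, minus strand: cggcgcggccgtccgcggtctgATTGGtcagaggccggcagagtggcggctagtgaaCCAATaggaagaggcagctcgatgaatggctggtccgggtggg
A CCAAT box was in 5 of the 6 stretches and a GC box in 2, those of Galnt2 and Papss1. No share was computed for these 100 bases over other promoters, so the counts describe these 6 stretches alone. The Rrbp1 stretch held 2 CCAAT boxes, and the Stt3a stretch held none of the letters searched.

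Away from promoters, CTCF matches were few. The 6 stable peaks shown are those with the smallest ratios among peaks eligible for printing (1 autosome was left out) that held a match whose surrounding bases overlapped no annotated exon. The lines below give 60 bases of the plus strand around the match (GRCm38), with the match in capitals, for peaks named by the nearest coding gene.
Psrc1, chr3:108389320-108389379: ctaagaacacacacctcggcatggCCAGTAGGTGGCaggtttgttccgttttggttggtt
Btbd10, chr7:113378090-113378149: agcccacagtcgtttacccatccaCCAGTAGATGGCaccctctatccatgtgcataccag
Celsr2, chr3:108401762-108401821: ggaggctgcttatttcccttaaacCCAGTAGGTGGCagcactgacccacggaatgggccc
Rpl14, chr9:120582747-120582806: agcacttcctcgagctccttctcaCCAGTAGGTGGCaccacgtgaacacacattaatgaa
Dapp1, chr3:137991371-137991430: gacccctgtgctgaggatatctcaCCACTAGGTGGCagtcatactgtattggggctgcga
Stard10, chr7:101310766-101310825: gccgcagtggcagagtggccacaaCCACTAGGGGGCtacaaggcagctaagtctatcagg
Mean levels of these peaks were 31.7 CPM at Psrc1, 33.5 at Btbd10, 64.8 at Celsr2, 41.4 at Rpl14, 32.4 at Dapp1 and 43.4 at Stard10. Their ratios of the highest to the lowest library were, in the same order, 1.12, 1.13, 1.16, 1.16, 1.18 and 1.2.

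Stable peaks had a median mean level of 63.6 CPM (quartiles 45.6 and 91.8, range 30 to 440.2) and a median ratio of 1.26 (range 1.06 to 1.35). The other highly open peaks had medians of 43.4 CPM and 1.5, with ratios up to 26.2. A ratio of at most 1.2 was met by 818 highly open peaks, of at most 1.3 by 2691, of at most 1.5 by 5982 and of at most 2 by 7681. The limit of 1.35 therefore cut through a continuous range. Just inside it were peaks at Trim33 (1.3496), Klf11 (1.3499) and Ttc17 (1.35), and just outside were Sf1 (1.35), Pxylp1 (1.3502) and Otulin (1.3502). Just inside the limit on the mean were peaks at Runx2 (30.003 CPM), Slc9a9 (30.027) and Fcor (30.032), and just outside were Rps15a (29.957), Hdhd5 (29.98) and Atl3 (29.981).

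The coefficient of variation over the 10 libraries had a median of 7.35% in stable peaks (range 2.02% to 12.2%). Fragment counting alone, taking each pair of mates as 1 fragment, gave a median of 4.81%. In 269 stable peaks (7.26%) the variation was at or below that of counting. In the other highly open peaks the median was 12.9%, counting gave 5.89%, and no peak was at or below counting. The ratio limit itself keeps the variation low in stable peaks and high in the others, so nothing is read from this contrast.

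**Figure D1:**
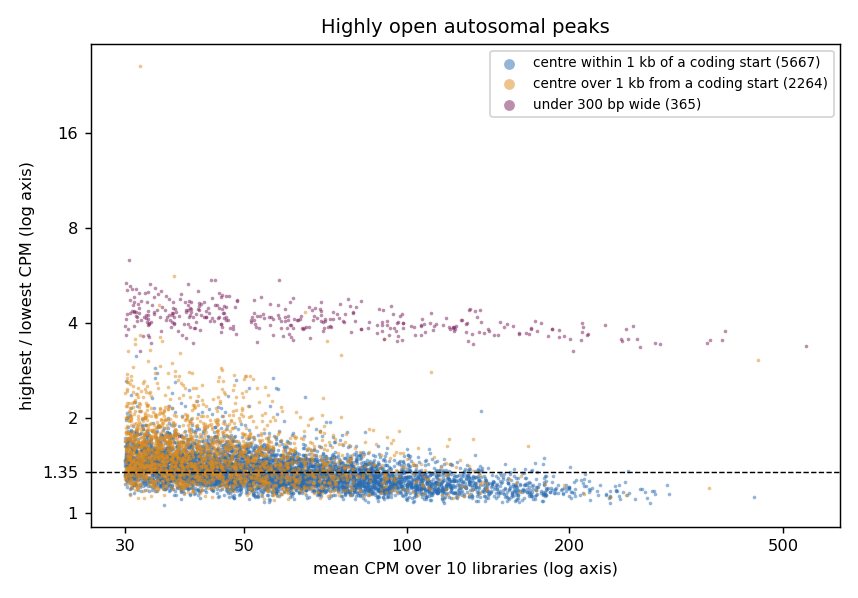
Each point is a highly open autosomal peak, with its mean CPM over 10 libraries on the x axis and its highest-to-lowest ratio on the y axis (both log axes), coloured by position and width. The dashed line is the limit of 1.35, under which 3705 of 8296 peaks lie, and the 365 peaks under 300 bp wide form a separate cloud with a median ratio of 4.08.

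The 12 steadiest peaks lay at promoters. Galnt2 encodes an enzyme that starts mucin-type O-glycosylation. Its promoter peak (chr8:124231160-124231836) was at 35.1 and 36.5 CPM in spleen controls, 35, 35.4, 35.4 and 35.5 in Vps34-deficient spleen, 36.6 and 36.4 in lung controls and 34.4 and 35.1 in Vps34-deficient lung. The 10 libraries spanned a ratio of 1.06, the smallest among highly open peaks, with a coefficient of variation of 2.04%.

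Stt3a encodes a catalytic subunit of the oligosaccharyltransferase that adds N-glycans. Its promoter peak (chr9:36767443-36768109) was at 234.2 and 245.3 CPM in spleen controls, 249.4, 242.5, 232.3 and 233.5 in Vps34-deficient spleen, 241.0 and 232.3 in lung controls and 237.0 and 239.2 in Vps34-deficient lung. All 4 groups overlapped, and the ratio was 1.07. Qdpr encodes the reductase that regenerates tetrahydrobiopterin. Its promoter peak (chr5:45449825-45450724) was at 282.9 and 281.8 CPM in spleen controls, 282.4, 297.3, 276.3 and 278.9 in Vps34-deficient spleen, 281.8 and 284.1 in lung controls and 285.9 and 278.8 in Vps34-deficient lung. The group means lay between 282.3 and 283.7 CPM, and its coefficient of variation of 2.02% was the lowest of all stable peaks.

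The other 9 of the 12 steadiest peaks had ratios of 1.08 to 1.09. They lay at Mdm1, a microtubule-binding centriole protein, at Atm, the DNA damage kinase, whose peak also covers the start of the histone gene activator Npat, and at Papss1, which makes the donor for sulfation. Further peaks lay at Lrmp, a lymphoid-restricted membrane protein, Arhgap11a, a GTPase-activating protein, and Rrbp1, a ribosome-binding protein of the endoplasmic reticulum. The last were at Zfp456, at Fto, the RNA demethylase that shares its promoter with Rpgrip1l, and at Ppp2r5e, a regulatory subunit of protein phosphatase 2A. All 12 centres were within 1 kb of a coding start, the Lrmp peak at 698 bp and the others within 148 bp. At Atm the spleen libraries were at 99.3 to 102.5 CPM and the lung libraries at 104.6 to 107.3, so that the tissues did not overlap although the ratio was 1.08.

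**Figure D2:**
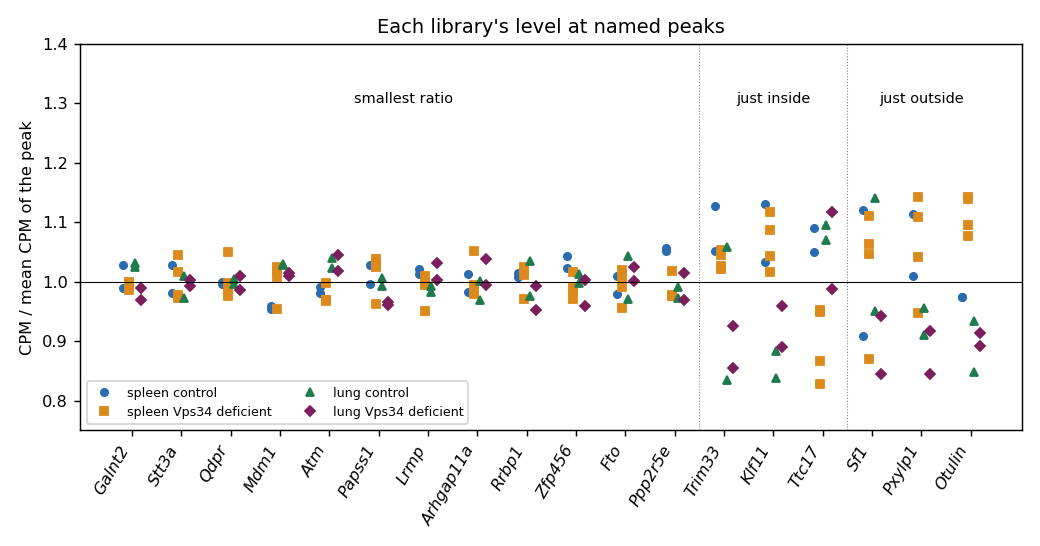
Each symbol is a library's CPM divided by the mean CPM of the peak (y axis), for the 12 peaks with the smallest ratio and the 3 just inside and 3 just outside the ratio limit (x axis, nearest gene), by group. At Galnt2 the libraries lie within a ratio of 1.06, at Trim33 just inside the limit of 1.35, and at Sf1 just outside it.

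Among stable peaks the highest CPM was at Sp4, a member of the Sp family that binds GC boxes. Its promoter peak (chr12:118300880-118302570) was at 440.2 and 447.7 CPM in spleen controls, 457.9, 435.8, 410.9 and 422.9 in Vps34-deficient spleen, 442.9 and 425.6 in lung controls and 457.7 and 460.6 in Vps34-deficient lung. Its ratio was 1.12. The next 7 by CPM were at Zbtb20, Pdcd10, Lnpep, Mon1b, Ifrd1, Kbtbd3 and Qdpr, with means of 283.0 to 363.3 CPM and ratios of 1.08 to 1.23. Mon1b acts in the exchange of Rab GTPases on late endosomes, and Lnpep is an aminopeptidase of insulin-responsive vesicles. Only the Zbtb20 peak among these 8 lay over 1 kb from a coding start (31955 bp), and another annotated transcript start lay 50 bp from its centre.

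The stable peaks were mostly promoter peaks. The centre lay within 1 kb of a coding start in 3043 of 3705 stable peaks (82.1%, 95% exact binomial interval 80.9% to 83.4%, which covers counting error only). The share was 57.4% among the other highly open peaks, 62.1% among those at least 300 bp wide, and 17.1% among all 94486 autosomal peaks. The centre lay within 100 bp of a coding start in 45.3% of stable peaks, in 29.8% of the other highly open peaks and in 7.76% of all autosomal peaks. It lay over 10 kb away in 429 stable peaks (11.6%), against 31.2% and 61.9%, and over 100 kb away in 58 (1.57%), against 6.58% and 14.8%. The median distance to a coding start was 118 bp in stable peaks and 279 bp in the other highly open peaks.

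By annotation, 34.4% of stable peak centres lay between genes, 32.5% in an untranslated part of an exon, 21.7% in an intron and 9.04% in a coding exon. The 662 stable peaks away from coding starts had their centres between genes in 52.7% and in introns in 40.2%. Of these 662, 143 lay within 1 kb of the start of another annotated transcript. Promoter peaks that held a divergent pair of coding starts, such as Atm and Npat or Fto and Rpgrip1l, made up 13.4% of stable promoter peaks (409 of 3043), 8.65% of the other highly open promoter peaks and 6.91% of all autosomal promoter peaks. Of 637 highly open divergent promoters 64.2% were stable, and of 5041 with a single direction 52.3%. Their median levels were 59.3 and 54.2 CPM.

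The share of stable peaks rose with the level at promoters. It was 29.7% of 1363 promoter peaks at 30 to 40 CPM, 41.2% of 1058 at 40 to 50, 51.9% of 1415 at 50 to 70, 72.1% of 1039 at 70 to 100, 87.4% of 573 at 100 to 150 and 94.3% of 230 at 150 CPM and over. Counting error fell along the same bins, from a median coefficient of variation of 6.56% to 2.88%, and its part in the rise was not tested. Away from starts, the shares were 17.1%, 24.2%, 35.9%, 39.3%, 37% and 21.2% in the same bins. With peaks under 300 bp wide left out they were 18.7%, 26.8%, 40.3%, 51.1%, 66.1% and 84.6%, the last being 11 of 13 peaks. At every level, a smaller share of the peaks away from starts than of the promoter peaks was stable.

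**Figure D3:**
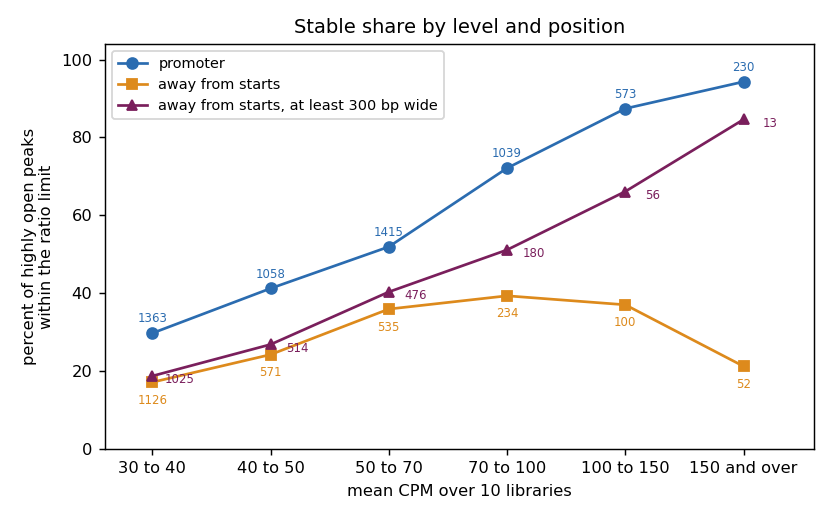
The y axis gives the percent of highly open peaks that were stable and the x axis the bin of mean CPM, for promoter peaks, peaks away from starts, and the latter at least 300 bp wide, with the number of peaks in each bin beside the points. The promoter share runs from 29.7% to 94.3%, and the share away from starts ends at 21.2% with narrow peaks and 84.6% without.

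None of the 365 highly open peaks under 300 bp wide was stable, although their median level was 57.8 CPM. Relative to a peak's own mean, their median level was 0.446 and 0.609 in spleen controls, 0.851, 0.766, 0.577 and 0.853 in Vps34-deficient spleen, 1.56 and 0.929 in lung controls and 1.59 and 1.81 in Vps34-deficient lung. The lowest library was spleen control replicate 1 in 364 of 365, and all 365 were highest in a lung library. The library totals, in the same order, were 22439699 and 14519013, then 14378259, 16349706, 22157725 and 13932355, then 9405823 and 14172956, then 12312928 and 9448418. The narrow peaks were thus lowest in the deepest library and, in 337 of 365, highest in 1 of the shallowest, and the part of depth was not tested. Of the 52 peaks away from starts at 150 CPM and over, 39 were narrow. In bins of width from 300 bp upwards, the stable share ran from 33.9% to 49.8%.

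**Figure D4:**
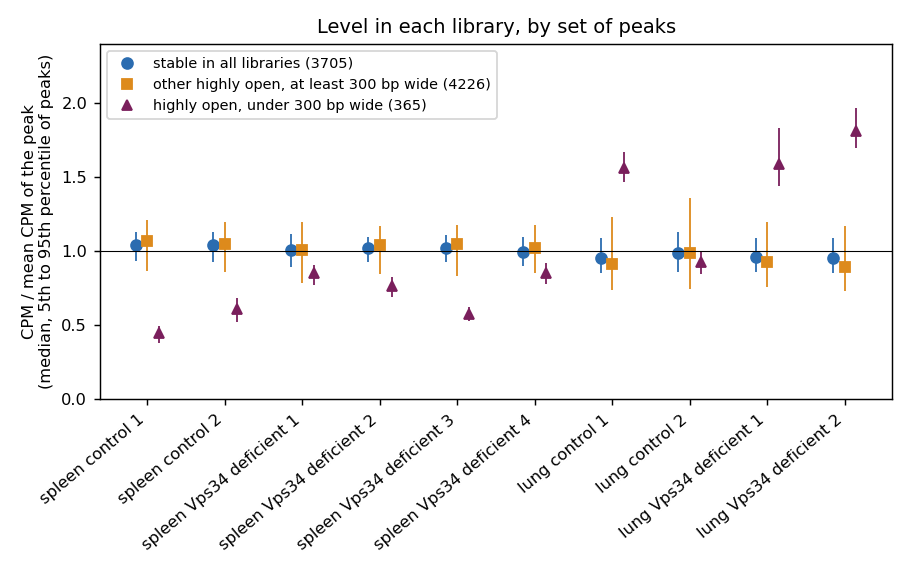
For each library (x axis), the median CPM relative to the mean of the peak (y axis) is drawn with the 5th to 95th percentile of peaks, for stable peaks, other highly open peaks at least 300 bp wide and highly open peaks under 300 bp wide. Stable peaks stay between medians of 0.958 and 1.04, and the narrow peaks run from 0.446 to 1.81.

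The stable peaks were not spread evenly over libraries. Their highest library was a spleen library in 2607 (70.4%) and their lowest a lung library in 2732 (73.7%), where spleen gave 6 of the 10 libraries. They held 28.9% ± 0.0883 of counts in spleen controls (SD, n = 2), 28.1% ± 0.268 in Vps34-deficient spleen (SD, n = 4), 27.2% ± 0.336 in lung controls (SD, n = 2) and 27% ± 0.0309 in Vps34-deficient lung (SD, n = 2). All 6 spleen libraries, at 27.8% to 29%, were above the 4 lung libraries, at 26.9% to 27.4%. A common offset of this kind is allowed by the ratio limit.

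The sequence at stable promoters was close to that of other highly open promoters in base composition. In the 300 bp at the peak centre, median GC content was 67% at stable promoters and 67.7% at other highly open promoters, and the median number of CpG was 28 and 29. Away from starts the medians were 52.3% GC and 7 CpG in stable peaks and 50.3% and 5 in the other highly open peaks at least 300 bp wide.

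The 14 motifs were searched on both strands of these 300 bp, allowing any base at an N and, for CTCF, the bases of its ambiguity letters, and no string contained another. Stable promoters had a median level of 68.4 CPM and other highly open promoters 45.4, and motif shares were not matched for level. The CCAAT box was in 39.9% of stable promoters, 30.5% of other highly open promoters and 28.6% of all autosomal promoter peaks. The GC box, searched as CCGCCC, was in 75.8%, 74.6% and 59.3% of the same sets. The ETS motif, searched as CCGGAAG, was in 18.1%, 19.4% and 13.1%. The NRF1 motif (GCGCATGCG) was in 2.73%, 2.09% and 1.78%, the YY1 motif (AANATGGCG) in 6.05%, 5.43% and 4.03%, and the cyclic AMP response element CRE (TGACGTCA) in 2.99%, 2.85% and 2.1%. The ZBTB33 motif (TCTCGCGAG) was in 1.08%, 1.71% and 0.769%, and the ZNF143 motif (ACTACAATT) in 0.493%, 0.304% and 0.372%. The TATA box, searched as TATAAA, was in 2.17%, 2.88% and 4.69%. Of these, CCAAT had the widest gap in percentage points between stable and other highly open promoters, and each of the others differed by under 2 percentage points. As a ratio, the low shares of ZNF143, ZBTB33 and the TATA box differed more than that of CCAAT, and that of NRF1 about as much.

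In stable peaks away from starts, matches to a CTCF consensus with ambiguity letters were found in 17 of 662 (2.57%), in 15 of 1602 (0.936%) of the other highly open peaks at least 300 bp wide and in 5.43% of all autosomal peaks away from starts. The AP-1 motif, searched as TGANTCA, was in 13.9%, 16% and 14.6% of the same sets, and the RUNX motif (TGTGGTT) in 13.7%, 17.2% and 12.1%. The NF-kB motif (GGGANTTTC) was in 1.21%, 2.5% and 1.68%, and the TCF motif (CTTTGAT) in 6.5%, 7.37% and 6.47%. The GC box was in 29.6%, 20.1% and 9.9%. A match describes the letters of the window and not a bound site.

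Gene lists were compared by how many of their highly open promoters were stable, beside 55.3% (3421 of 6188) over all autosomal coding genes. Promoters were counted per gene, so a peak shared by a pair of genes, such as Mrpl46 and Mrps11, counted for both. No list was tested against another. Median levels of the lists' highly open promoters ran from 39 CPM for interferon genes to 72.1 for chaperones, beside 55.8 over all coding genes. The stable share of promoters rose with level, and the lists were not matched for it. Splicing factors had 26 of 37 (70.3%), aminoacyl-tRNA synthetases 19 of 29 (65.5%), translation initiation factors 19 of 30 (63.3%), Rab GTPases 23 of 37 (62.2%) and DNA replication genes 23 of 37 (62.2%). Chromatin regulators had 21 of 34 (61.8%), mitochondrial ribosomal proteins 22 of 36 (61.1%) and chaperones 14 of 23 (60.9%). Cytosolic ribosomal proteins had 20 of 36 (55.6%), Zfp zinc finger genes 90 of 163 (55.2%), and RNA polymerase and Mediator subunits 14 of 26 (53.8%). Respiratory chain subunits had 24 of 51 (47.1%), proteasome subunits 9 of 20 (45%) and endosomal sorting genes of the Vps, Snx and Chmp families 13 of 38 (34.2%).

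**Figure D5:**
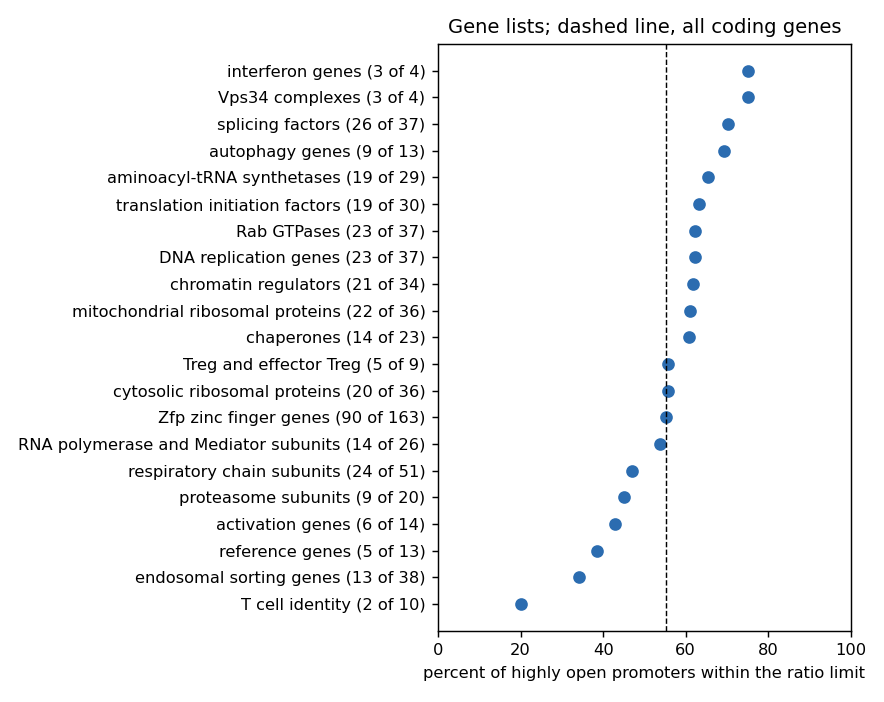
Each point is the percent of a list's highly open promoters that were stable (x axis), with the counts beside the list names (y axis). The dashed line is the 55.3% over all coding genes, and the lists run from 20% for T cell identity genes to 75% for the small Vps34 complex and interferon lists. The lists were not matched for level.

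For the subunits of the Vps34 complexes, which make phosphatidylinositol 3-phosphate in autophagy and endosomal traffic, 3 of 4 highly open promoters were stable. Pik3c3 itself, on chromosome 18, was at 62 and 60.7 CPM in spleen controls, 67.3, 65.8, 63.5 and 64.3 in Vps34-deficient spleen, 52.5 and 57 in lung controls and 55.1 and 61.8 in Vps34-deficient lung. The genotypes overlapped in lung, and in spleen the Vps34-deficient libraries were slightly above the controls. Openness of the promoter does not check deletion within the gene. Uvrag, a subunit of the endosomal complex, had a mean of 118.2 CPM and a ratio of 1.22, and Nrbf2, a subunit of the autophagy complex, 50.2 and 1.35. Pik3r4, the regulatory kinase-like subunit, was just above the limit at 1.36, and Becn1, Atg14 and Rubcn had means under 30 CPM. Among autophagy genes of the Atg and Ulk families, 9 of 13 (69.2%) were stable.

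Of the genes commonly used as expression references, 5 of 13 highly open promoters were stable (38.5%). The stable promoters were those of Eef1a1 (55 CPM, ratio 1.14), Hsp90ab1 (72.1, 1.24), B2m (63.6, 1.27), Actb (57.9, 1.29) and Tfrc (45.7, 1.3). Gapdh was at 1.38 and Ywhaz just over the limit at 1.35, while Polr2a reached 1.61.

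Of the T cell identity genes, 2 of 10 highly open promoters were stable (20%), among them that of Cd3d, a T cell receptor signalling chain (38.4 CPM, ratio 1.29). The 10 had a median level of 41.3 CPM, and of all promoter peaks at 40 to 50 CPM 41.2% were stable. Satb1 and Lef1, nuclear factors of T cell identity, were at 1.48 and 1.49. Runx3, a lineage regulator of T cells, was at 2.09, with 43.4 and 56.6 CPM in lung controls, 30 and 27.5 in Vps34-deficient lung, and 27.1 to 38.8 in the 6 spleen libraries. Of the 20 genes in this list 10 had a promoter mean under 30 CPM, among them Cd4 (5.77) and Tcf7 (5.24).

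Treg and effector Treg genes had 5 of 9 highly open promoters stable (55.6%). Maf encodes a transcription factor of effector T cells. Its promoter was at 97.6 and 95.7 CPM in spleen controls, 93.1, 89.3, 95.4 and 100.3 in Vps34-deficient spleen, 92.8 and 101.7 in lung controls and 95.5 and 90.5 in Vps34-deficient lung, at a ratio of 1.14. The spleen controls lay just above Vps34-deficient lung, and all other pairs of groups overlapped. The others were Tnfrsf9, a costimulatory receptor (53.8 CPM, ratio 1.17), Entpd1, the ectonucleotidase CD39 (67, 1.22), Ikzf2, the Treg factor Helios (46.4, 1.26), and Nrp1, a surface receptor of thymic Tregs (39, 1.28). Tigit, an inhibitory receptor, was highly open but not stable, with 48.3 and 56.3 CPM in spleen controls, 39.2, 37.1, 35 and 40.8 in Vps34-deficient spleen, 80.5 and 93.6 in lung controls and 61.4 and 72.6 in Vps34-deficient lung. Every lung library was above every spleen library, at a ratio of 2.67. Klrg1, a marker of terminal effector Tregs, had a promoter mean of 4.88 CPM.

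All 14 promoters of the activation genes were highly open and 6 were stable (42.9%). Jun, an AP-1 subunit, was at 167.4 and 165.2 CPM in spleen controls, 167.0, 172.6, 165.7 and 170.3 in Vps34-deficient spleen, 140.3 and 133.6 in lung controls and 158.5 and 165.6 in Vps34-deficient lung. Both lung controls were below the other 8 libraries, at a ratio of 1.29. Egr2 (106.6 CPM, ratio 1.2), Fosb (32, 1.21), the NF-kB inhibitor Nfkbia (133.3, 1.29), Nr4a3 (57.7, 1.34) and Nr4a1 (70.5, 1.35) were also stable. The AP-1 subunit Fosl2 was at 2.48, with 65.8 to 98.6 CPM in lung and 39.8 to 50.5 in spleen. Of the interferon genes, 3 of 4 highly open promoters were stable, those of the transcription factors Irf7 (37.1 CPM, ratio 1.14), Stat2 (51.9, 1.17) and Irf1 (40.9, 1.27).

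Stable peaks far from coding starts had ratios of 1.2 to 1.33 among the 8 most distant. Of these, 2 were nearest to Cblb, an E3 ubiquitin ligase that restrains T cell activation. The peak 340226 bp from its start (chr16:51690624-51691374) was at 96.1 and 86.9 CPM in spleen controls, 87.5, 102.3, 94.6 and 108.7 in Vps34-deficient spleen, 111.4 and 114.2 in lung controls and 115.5 and 109.4 in Vps34-deficient lung. All lung libraries were above all spleen libraries within a ratio of 1.33. The other Cblb peak, 355907 bp away (chr16:51675005-51675630), had a mean of 51.5 CPM and a ratio of 1.2. Further distant peaks were nearest to Kcnj2 (735019 bp, with another annotated start at 307 bp), Maf (517093 bp), Sall3 (443363 bp), Trib2 (353407 and 316548 bp) and Adgrl2 (336331 bp). Nearest is a matter of distance and does not assign a target gene.

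Chosen after the values were seen, the stable peaks away from starts with the smallest ratios were nearest to Pdxk (1.1), Ifng (1.1), Cnga1 (1.11), Mier3 (1.11), Gm13283 (1.12) and Psrc1 (1.12). The peak 21846 bp from Ifng, the gene of interferon gamma (chr10:118418806-118419594), was at 55.5 and 55.4 CPM in spleen controls, 53.4, 54.4, 54.4 and 53.1 in Vps34-deficient spleen, 56.1 and 56 in lung controls and 53.9 and 50.8 in Vps34-deficient lung. Of the 6 stable peaks away from starts with the highest means, 5 had the start of another annotated transcript at 50 to 363 bp, those nearest to Zbtb20, Zfp958, Foxj2, Smim15 and Pcmtd1, and the peak nearest to Gm10775 had one at 762 bp.

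The stable peaks had 3351 nearest genes, of which 3057 had 1 stable peak, 294 had 2 or more and 48 had 3 or more. Cblb had 6 stable peaks of 10 highly open ones, with means of 31.7 to 150.8 CPM. Pik3r1, the regulatory subunit of class I phosphoinositide 3-kinase, had 5 of 6, at 32.4 to 122.3 CPM and ratios of 1.19 to 1.33. Atp2b1, a calcium pump, Ier5 and Irf2bp2 had 4 of 6, Rapgef2 and Trio, which activate small GTPases, 4 of 5, and Cdyl2 4 of 4. Neighbouring stable peaks lay a median of 198162 bp apart, and 161 of 3686 neighbouring pairs were within 10 kb.

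By chromosome, the stable share of highly open peaks ran from 33.1% on chromosome 11 (131 of 396) and 33.3% on chromosome 19 (67 of 201) to 49.5% on chromosome 9 and 49.9% on chromosome 3. On chromosome 11 it was 40.9% of promoter peaks and 9 of 98 peaks away from starts (9.18%), and the median promoter level there, 46.9 CPM, was the lowest of the 19 chromosomes.

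Differential accessibility was tested over all peaks with edgeR's quasi-likelihood test, with peaks called at a Benjamini-Hochberg adjusted p under 0.05 and an absolute log2 fold change over 0.5. Of all tested peaks, 1.46% were called for genotype in spleen, 4.96% for genotype in lung, 15.4% for tissue in controls and 17.2% for tissue in Vps34-deficient cells. No stable peak was called in any of the 4 comparisons by edgeR or by DESeq2. With edgeR, 106, 293, 306 and 340 stable peaks (2.86%, 7.91%, 8.26% and 9.18%) had an unadjusted p under 0.05. The shares over all tested peaks were 14.3%, 20.3%, 29.2% and 31%. An adjusted p under 0.05 by edgeR was found in 2, 10, 56 and 80 stable peaks (0.054%, 0.27%, 1.51% and 2.16%). Over all tested peaks these shares were 1.5%, 5.14%, 16.1% and 18.4%. The log2 fold changes of stable peaks lay between -0.31 and 0.28 for genotype in spleen and between -0.39 and 0.34 for genotype in lung. They lay between -0.34 and 0.43 for tissue in controls and between -0.34 and 0.39 for tissue in Vps34-deficient cells. The ratio limit leaves little room for a larger change, so nothing is read from these counts. Among the other highly open peaks, 63, 279, 672 and 579 were called.

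To read peaks in libraries that had no part in their choice, the same limits were applied to the 6 spleen libraries alone and then to the 4 lung libraries alone. The spleen choice held 7426 peaks, and in the unused lung libraries their median ratio was 1.21, and 80.4% stayed within 1.35. This was 84.8% at promoters and 67.2% away from starts. Their mean in lung was within 1.35-fold of the mean in spleen in 96.4%, and more than 2-fold apart in 5 peaks. Of the 771 highly open peaks at least 300 bp wide that exceeded the limit in spleen, 41.1% were within it in lung. The lung choice held 5838 peaks, of which 95.1% stayed within 1.35 in the 6 unused spleen libraries, 97.2% at promoters and 87.7% away from starts. Of 1750 peaks at least 300 bp wide above the limit in lung, 72.2% were within it in spleen. The tissues differ in the number of libraries, and a ratio over more libraries tends to be larger.

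The genotype effect in lung was then tested among the peaks chosen on spleen, in a fit of the 4 lung libraries alone. Of all tested peaks 2.01% were called in this fit by edgeR, and of the 7426 chosen peaks 37 (0.498%), 9 higher and 28 lower in Vps34-deficient cells. At promoters 4 of 5580 were called (0.0717%) and away from starts 33 of 1846 (1.79%). Among highly open peaks at least 300 bp wide that exceeded the limit in spleen, 69 of 771 were called (8.95%), 4% at promoters and 12.1% away from starts. Of the chosen peaks 610 (8.21%) had an unadjusted p under 0.05 by edgeR, against 15% of all tested peaks in this fit. Leaving out a lung library left this fit an arm of 1 library and 1 residual degree of freedom, with the lone library assumed to vary like the other arm. The count among chosen peaks was then 318 without lung control replicate 1, 33 without replicate 2 and 0 without either Vps34-deficient lung library, and at this size a 0 does not show that no peak differed.

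The largest fall among these was 28834 bp from Itgav, the integrin alpha V gene (chr2:83695216-83695909). It was at 39.8 and 47.6 CPM in lung controls and 24 and 18.8 in Vps34-deficient lung, with 28.9 to 37.7 CPM in the 6 spleen libraries. Its log2 fold change was -1.05 ± 0.19 (SE), and edgeR gave an adjusted p of 0.00568. A peak 48245 bp from Fbxo11 fell by 0.89 on the log2 scale, from 77.5 and 90.5 CPM to 45.2 and 47.4, and the promoter of Fbxo27 fell by 0.83. Peaks near Ints7 and Anxa3 rose by 0.83 and 0.82. Fbxo11 and Fbxo27 encode F-box proteins, Ints7 a subunit of the Integrator complex, and Anxa3 an annexin. These were peaks that kept to the limit in spleen and not over all 10 libraries.

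The genotype effect in spleen was tested in the same way among the peaks chosen on lung. In the fit of the 6 spleen libraries alone 3.34% of all tested peaks were called, and of the 5838 chosen peaks 2 (0.0343%). Without the limit on the fold change, 64 of the chosen peaks (1.1%) had an adjusted p under 0.05 by edgeR, and 856 (14.7%) had an unadjusted p under 0.05. Over all tested peaks in this fit these shares were 3.8% and 17.6%. The 2 called peaks were 11511 bp from Gdi2, with a log2 fold change of -0.52, and 93241 bp from Dhrs3, with 0.50. Both lay at the limit on the fold change, and neither call held under every alternative: with library size scaling, or with all 10 libraries in the fit, the 1 peak called was higher in Vps34-deficient cells, and with DESeq2 both peaks called were lower. Among peaks at least 300 bp wide above the limit in lung, 70 of 1750 were called (4%), 0.718% at promoters and 7% away from starts. Leaving out lung control replicate 2 from the choice admitted narrow peaks, and 280 of 7227 chosen peaks were then called, 267 of them under 300 bp wide.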

How the data were processed

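The authors trimmed and aligned paired-end reads (BWA), dropped duplicate reads (Picard), shifted read ends for the Tn5 cut, kept nucleosome-free fragments, called peaks per sample with MACS2 and merged them. The submitters' processing notes name MACS2 2.1.0.20150603, Picard 1.65 and cutadapt 1.9, and GRCm38. An older assembly is named in the methods, but the scaffolds in the table belong to GRCm38, which was used with its GENCODE annotation. The deposited values are raw counts of reads per peak, not normalised. Counts were mostly even, since both mates were counted, so counting error was computed on halved counts.

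Counts were scaled to CPM by column totals. The members and gene lists were chosen with earlier results of these data known. Distances run from the peak centre to the nearest start, and positions are given from 1. Peaks named are the 12 with the smallest ratio, the 8 with the highest mean, the 8 farthest from a coding start, listed genes, those next to either limit and genes with several stable peaks. Tests used filterByExpr, TMM factors and edgeR 4.0.16 (R 4.3.3) with 4 groups, and procedures were tested on simulated data. Alternatives were DESeq2 1.42.0, other scaling, limits and windows, the replicate number as a block, and leaving out each library. Python 3.11.15 with pandas 2.3.3 was used for the rest. Values of a few genes in the lists are not reported here.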

Additional observations from a re-analysis of the deposited data

Results flagged for a closer look

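The 4 Vps34-deficient spleen libraries were compared on 61 items. These were named stable peaks, stable promoters of listed genes, and the shares of counts in stable and in other highly open peaks. At 4 of these a library was set apart from the other 3 by more than Dixon's 95% critical value. The peaks were chosen for small differences over the same libraries. The chance rate of that value therefore does not hold for them, and nothing is read from the number flagged. At the Atm peak replicate 2 was at 102.5 CPM, with the others at 99.3 to 99.6. At the Ppp2r5e peak replicate 2 was at 136.8 CPM, with the others at 131.1 to 131.3. At the Zbtb20 peak replicate 1 was at 376.6 CPM, with the others at 345.1 to 350.4. At the Eef1a1 promoter replicate 1 was at 54.8 CPM, with the others at 55.3 to 55.4.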

How the results depend on the processing

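The number of stable peaks was 1679 with a ratio limit of 5/4 and 5982 with 1.5, and 3770 to 4303 when a library was left out. The promoter share was 78.4% and 86.9% with mean limits of 20 and 50 CPM, 84.6% and 79.1% with those ratio limits, 80.1% and 83.9% with 500 bp and 2 kb for the distance, 86% with any annotated start, and 79.7% to 82% without a library. Other scalings moved the number of stable peaks by less than 1.5 times, and all 14 motif shares of stable peaks were lower with a 200 bp window. The CCAAT box was then in 31.7% of stable and 24% of other highly open promoters. The order turned for CRE, at 1.84% and 2.13%. The share of other highly open peaks at a promoter was 57.4% and, with peaks at least 300 bp wide alone, chosen after seeing the data, 62.1%.

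With the replicate number as a block, the number of called peaks was 277 against 1422 for genotype in spleen, 2772 against 4820 for genotype in lung, 11393 against 14917 for tissue in controls and 6751 against 16678 for tissue in Vps34-deficient cells. Deviations of same-numbered libraries from their group means had correlations of -0.097 to 0.0638. In a group of 2 libraries the deviations mirror each other, so these values cannot show whether the numbers pair samples. Leaving out a library gave 364 to 2722, 1518 to 8986, 4740 to 15003 and 9112 to 18742 calls, and no stable peak was called in any of these fits. The count for genotype in spleen moved by over 1.5 times without spleen control replicate 1 (410) or 2 (364), Vps34-deficient spleen replicate 2 (879) or 4 (843), or lung control replicate 1 (2707) or 2 (2722). That for genotype in lung moved without lung control replicate 1 (8986) or 2 (1518), or Vps34-deficient lung replicate 1 (1911) or 2 (2836). The tissue counts moved without spleen control replicate 1 (4740) or 2 (8917) or lung control replicate 1 (8332), and without Vps34-deficient lung replicate 1 (10666) or 2 (9112).

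Among peaks chosen on spleen, the 37 calls for lung became 124 with all 10 libraries in the fit, 24 with DESeq2, 18 and 66 with ratio limits of 5/4 and 1.5, 30 with the block, and 0 to 318 without a library, where each fit without a lung library had 1 residual degree of freedom. Among peaks chosen on lung, the 2 calls for spleen became 1 with all 10 libraries or with library size scaling, 5 with the block, 9 with a limit of 1.5, and 1 to 280 without a library. The 280 calls came without lung control replicate 2, and 267 of them were peaks under 300 bp wide. The cause of the other changes was not tested. At 30 to 40 CPM the median coefficient of variation was 12.3%, beside 6.59% computed from counting error alone, and the part of depth in the ratio was not tested.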
